A study of Mus musculus with 43 samples.

Results

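The leukocyte integrins described here are 8 genes taken by name from the 56748 genes counted in epididymal white adipose tissue of male mice. They are the alpha chains Itgad, Itgax, Itgam and Itgal with their shared partner Itgb2, and the chains Itga4, Itgb7 and Itgae. All 8 were among the 20218 genes that passed the filter on low counts and were tested. The 43 RNA-seq libraries fall into 5 groups. The control mice ate a diet with 10% fat (SD, 7 libraries) and the mice of the high-fat group a diet with 60% fat (HFD, 10 libraries). The other groups ate the same high-fat diet and received SZ-A, the alkaloids of Ramulus Mori (Sangzhi), at 200 mg/kg/day (9 libraries), 400 mg/kg/day (8 libraries) or 600 mg/kg/day (9 libraries). The labels used here give neither strain, age nor length of treatment. They also do not say whether each library is a separate animal. Tests therefore set group differences against the spread between libraries, which may not be that between mice.

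Integrins are pairs of 1 alpha and 1 beta chain that span the cell membrane and bind ligands on other cells or in the matrix. On white blood cells the beta chain Itgb2 (CD18) pairs with Itgal (CD11a), which binds ICAM proteins and is abundant on lymphocytes, with Itgam (CD11b), a complement receptor of myeloid cells, with Itgax (CD11c), a marker of dendritic cells and of macrophages in obese fat, and with Itgad (CD11d), found on tissue macrophages. Itga4 pairs with Itgb1 or Itgb7 and binds VCAM-1, MAdCAM-1 and fibronectin, and Itgae (CD103) pairs with Itgb7 and binds E-cadherin. Talin and kindlin bind the tail of the beta chain and switch the pair to its binding form, and Src family kinases and Syk carry the signal of bound integrin into the cell.

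The files place Itgal at chr7:126895432-126934310, Itgam at chr7:127661812-127717663, Itgax at chr7:127728719-127749829 and Itgad at chr7:127753548-127822988, all on the plus strand. Thus Itgam, Itgax and Itgad lie in a row, 11.1 kb and 3.72 kb apart, and Itgal lies 728 kb before them. Itgb2 is at chr10:77366086-77401542 and Itga4 at chr2:79085770-79163467, both on the plus strand. Itgae is at chr11:72981409-73038272 on the plus strand, and Itgb7 at chr15:102124430-102140379 on the minus strand. The labels name mm10, but the files' coordinates differ from those of the GRCm38.p6 promoters below and were not combined with them.

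The promoters of the neighbours Itgax and Itgam are shown because both genes were higher in HFD and their levels moved together across libraries. RefSeq promoters on GRCm38.p6, from 250 bases before to 50 bases after the start site, were at hand for 4 of the 8 members. GAGGAA, the core letters of sites of the myeloid factor PU.1, and TGTGGT, the core letters of RUNX sites, were searched on both strands and do not overlap. Capitals mark the matches, written TTCCTC where GAGGAA lies on the other strand.
Itgax, chr7:128129300-128129599, plus strand: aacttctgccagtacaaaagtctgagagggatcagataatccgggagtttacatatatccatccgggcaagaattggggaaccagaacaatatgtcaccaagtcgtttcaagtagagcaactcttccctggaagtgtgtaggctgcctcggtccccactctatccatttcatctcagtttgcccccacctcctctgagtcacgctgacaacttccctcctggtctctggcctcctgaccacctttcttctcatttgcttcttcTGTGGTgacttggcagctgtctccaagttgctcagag
Itgam, chr7:128062390-128062689, plus strand: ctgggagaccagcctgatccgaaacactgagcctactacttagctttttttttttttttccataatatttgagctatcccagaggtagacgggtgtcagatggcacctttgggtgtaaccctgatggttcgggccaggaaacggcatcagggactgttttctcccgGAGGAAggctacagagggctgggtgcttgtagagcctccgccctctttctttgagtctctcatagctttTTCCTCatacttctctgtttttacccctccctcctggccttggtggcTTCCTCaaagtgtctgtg
The Itgam window holds 3 GAGGAA matches, which begin at -84, -15 and 33 from the start site, and no TGTGGT. The Itgax window holds 1 TGTGGT, at 14, and no GAGGAA. Of the others, Itgb7 has 1 GAGGAA and Itga4 has 1 TGTGGT. Of 32851 promoters of the same length, 28.3% hold GAGGAA and 16.8% hold TGTGGT. A match is a description of these letters, not a measured binding site.

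Itgad and Itgax are close paralogs, and the longest stretch that their GENCODE vM21 transcripts share without a mismatch is shown because reads inside it fit both genes. It is 188 bases long and lies in the coding part of both, from base 1494 to 1681 of the Itgad transcript and from base 1274 to 1461 of the Itgax transcript.
Shared by Itgad and Itgax: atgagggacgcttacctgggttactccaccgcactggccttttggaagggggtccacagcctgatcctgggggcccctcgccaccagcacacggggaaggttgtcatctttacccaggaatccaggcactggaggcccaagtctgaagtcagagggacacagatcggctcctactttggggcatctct
In all, 15.2% of the 50-base windows of Itgad transcripts and 9.61% of those of Itgax occur in transcripts of another gene. The authors' treatment of such reads is not given in the sources used here, so the count of Itgad, the lower of the pair, is uncertain by what it may have taken from Itgax. The CPM (counts scaled to a common library size with TMM factors) of Itgad ranged from 0.502% to 29.5% of that of Itgax across the 43 libraries. The highest of these came from SZ-A 400 library 3, which carries RNA of other tissue. The next was 12.8%, in SD library 2, on 36 counts of Itgad. The part of shared reads in the Itgad count was not tested. Gm49368, a predicted gene on the same strand, spans Itgam, and 72.4% of the windows of Itgam occur in another gene. The files gave Gm49368 a mean of 0.0154 CPM in HFD, and how much of the Itgam count was lost to or dropped for this overlap cannot be told, so the level of Itgam relative to other genes is uncertain.

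Libraries held 32716294 to 44259619 counts, with a median of 37552576. By the share of counts on small noncoding RNA they fall into 2 sets that the labels do not mention, 22 libraries with 0.00319% to 0.00643% (set 1) and 21 with 0.00992% to 0.0229% (set 2). Both sets hold libraries of every group, but set 1 has only 2 of the 7 SD libraries. Between the sets, 32.9% of tested genes were called higher in set 2 and 25% lower. Itgad (-1.34, adjusted p = 0.0399) and Itgam (-0.90, adjusted p = 0.0319) were lower in set 2, and Itgal (0.86, adjusted p = 0.0235) and Itgae (0.78, adjusted p = 1.88e-04) higher, as log2 differences by edgeR's quasi-likelihood test. SD library 4, SZ-A 400 libraries 3 and 6 and SZ-A 600 library 6 each had between 185 and 752 genes abundant almost nowhere else, among them genes of epididymis, ciliated or squamous epithelium. SZ-A 200 library 8 had 58 such genes and the highest summed level of B and plasma cell markers, 501 CPM. The adipocyte markers Adipoq, Plin1, Lep, Cidec, Fabp4 and Lipe were abundant in every group, with a median summed level between 16260 and 28650 CPM. The lowest library of SZ-A 400 had a sum of only 2009 CPM, and the lowest of each other group had between 7385 and 11160 CPM.

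High-fat feeding was accompanied by higher transcript levels of most leukocyte integrin chains, led by the alpha chains Itgad and Itgax. Compared with SD, 6 of the 8 members were called higher in HFD and none lower, where 18.4% of all tested genes were called higher and 13.3% lower. The median log2 fold change of the 8 was 2.47, against -0.05 over all tested genes. A call is an adjusted p under 0.05 by edgeR's quasi-likelihood test with Benjamini-Hochberg adjustment over all tested genes, and levels are CPM. Itgad passed the filter mainly through the high-fat groups, since only 2 of 7 SD libraries reached the cutoff of 0.266 CPM that 7 libraries had to reach. In tissue RNA, fewer cells of a type and less RNA per cell cannot be told apart.

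Itgax, the CD11c chain, was per length the most abundant of the alpha chains in HFD, with a mean of 78.4 FPKM (fragments per kilobase of transcript, scaled to library size). In the SD libraries 1 to 7 its level was 12.3, 8.20, 3.37, 13.2, 3.28, 7.06 and 18.0 CPM. In the HFD libraries it was lowest at 9.15 CPM, had a median of 472 and was highest at 652. HFD libraries 8 (9.15 CPM), 10 (43.5 CPM) and 9 (253 CPM) were the lowest, and the other 7 lay between 330 and 652 CPM, far above every SD library. HFD library 8 lay inside the SD range. The mean was 9.34 ± 5.43 CPM (SD, n = 7) on the standard diet and 383 ± 219 CPM (SD, n = 10) on the high-fat diet. The fitted difference was 5.36 ± 0.87 (log2, SE), a 41.0-fold rise, with an adjusted p of 1.03e-04.

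Itgad, the CD11d chain, was near the limit of detection on the standard diet. The SD libraries 1 to 7 held 0.441, 1.05, 0.0984, 0.153, 0.0800, 0.143 and 0.163 CPM, the lowest of these resting on 3 counts. The 10 HFD libraries ranged from 0.182 to 42.6 CPM with a median of 25.3. HFD libraries 8 (0.182 CPM), 10 (0.810 CPM) and 9 (4.59 CPM) were again the lowest, and the first of these lay inside the SD range, as did the second. Itgad was higher by 6.18 ± 1.16 (log2, SE), a 72.7-fold rise, with an adjusted p of 3.11e-04. In library set 1 the SD libraries had 0.441 and 1.05 CPM and HFD 20.2 to 42.6. In set 2 SD had 0.0800 to 0.163 and HFD 0.182 to 36.0. The lowest HFD library rested on 6 counts, so the groups of set 2 cannot be called separate. Cox6a2, a muscle form of a cytochrome oxidase subunit, lies inside Itgad on the opposite strand and was also called higher (4.05, adjusted p = 6.81e-04), at a mean of 2.17 CPM in HFD; the labels describe dUTP libraries, but whether the counting used strand is not given.

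Itgb2, the beta chain that all these alpha chains need, was per length the most abundant member in HFD, with a mean of 198 FPKM. Its level in the SD libraries was lowest at 16.2, had a median of 31.2 and was highest at 62.0 CPM. In HFD the corresponding values were 23.2, 671.5 and 1196 CPM. As for Itgax and Itgad, HFD libraries 8 (23.2 CPM) and 10 (74.9 CPM) were the lowest, and library 8 alone fell within the SD range. Itgb2 was higher by 4.19 ± 0.80 (log2, SE), with an adjusted p of 3.30e-04.

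Itgam, the CD11b chain, rose less than its neighbours. It was at 5.10 to 21.3 CPM in SD (median 6.92) and at 9.54 to 119 CPM in HFD (median 65.7). HFD libraries 8 and 10, at 9.54 and 14.3 CPM, overlapped the SD range, whose highest value came from SD library 4. The log2 difference was 2.84 ± 0.63 (SE), with an adjusted p of 0.00105.

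Itgal, the CD11a chain, did not pass the test. It was at 2.76 to 16.7 CPM in SD (median 5.83) and at 2.53 to 38.6 CPM in HFD (median 10.4), and the groups overlapped broadly. The log2 difference was 0.81 ± 0.54 (SE), with an adjusted p of 0.249. HFD libraries 7 (38.6 CPM) and 3 (28.2 CPM) were the highest, and HFD library 9 was the lowest at 2.53 CPM.

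**Figure D1:**
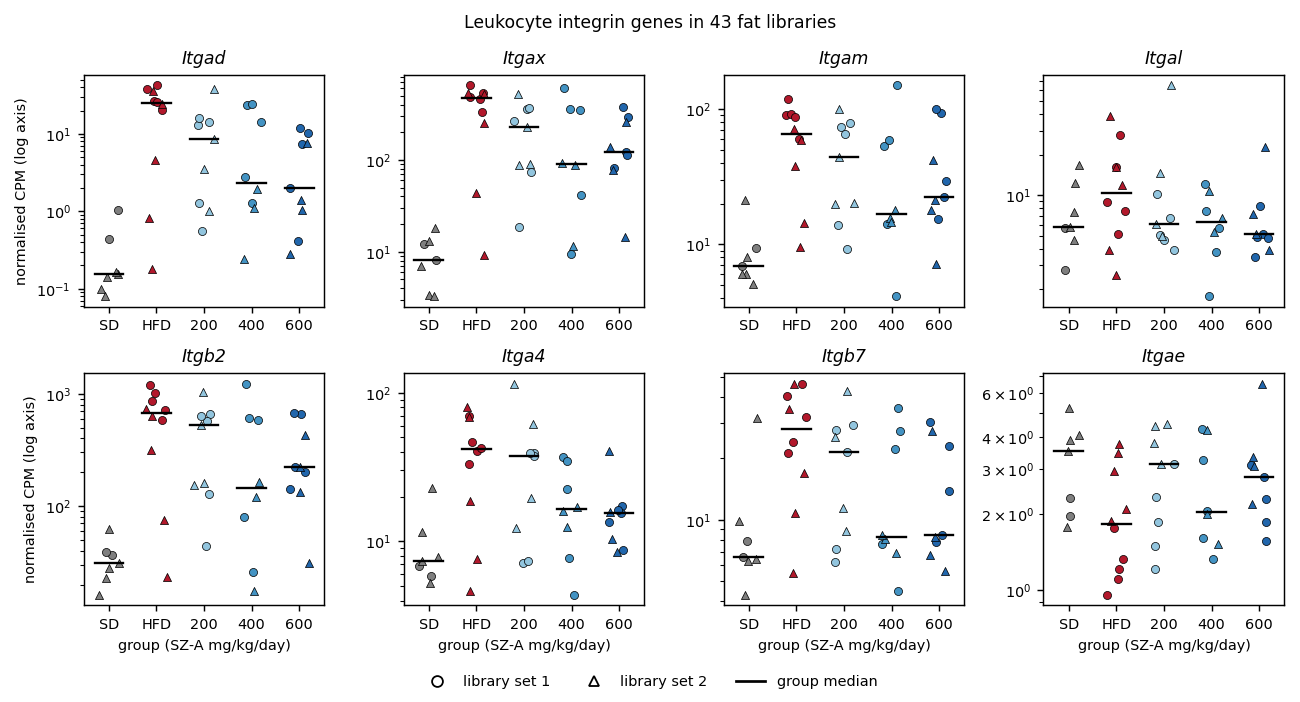
Level of each of the 8 members in every library (CPM on a log axis) by group. Each point is a library, round in library set 1 and triangular in set 2, and the line is the group median. Itgad, Itgax, Itgam, Itgb2 and Itga4 are high in most HFD libraries and low in HFD libraries 8 and 10, while Itgal and Itgae overlap between SD and HFD.

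Of the chains outside the Itgb2 group, Itga4 and Itgb7 were called higher in HFD and Itgae was not. Itga4, the CD49d chain, was at 5.28 to 23.0 CPM in SD (median 7.36) and at 4.66 to 80.3 CPM in HFD (median 41.6). It was higher by 2.09 ± 0.54 (log2, SE; adjusted p = 0.00327). HFD libraries 8, 9 and 10 lay below the highest SD library, number 4, and the other 7 HFD libraries lay above it. Itgb7, the beta chain shared by Itga4 and Itgae, was at 4.30 to 31.4 CPM in SD (median 6.56) and at 5.48 to 46.5 CPM in HFD (median 28.0). Its log2 difference was 1.42 ± 0.49 (SE; adjusted p = 0.0243), and the call was lost without SD library 3, 5 or 7 (adjusted p = 0.0512, 0.0554 and 0.0508). Itgae, the CD103 chain, was per length the scarcest member in HFD, with a mean of 0.444 FPKM. It was at 1.78 to 5.24 CPM in SD and 0.956 to 3.77 in HFD. Its log2 difference was -0.67 ± 0.32 (SE; adjusted p = 0.107), the only negative value of the 8. With library set as a term and the 4 other-tissue libraries left out, Itgae was called lower (-0.67, adjusted p = 0.0211). Haspin, a mitotic kinase gene inside Itgae on the opposite strand, was called higher (1.20, adjusted p = 0.0233). Without the 4 other-tissue libraries the same 6 members were called higher in HFD, in a fit whose share of all tested genes called is not given here. Their log2 differences were 6.06 (Itgad), 5.45 (Itgax), 4.40 (Itgb2), 3.20 (Itgam), 2.46 (Itga4) and 2.00 (Itgb7).

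The same HFD libraries were low in the markers of leukocytes as a whole. The summed CPM of Ptprc, Coro1a and Laptm5 ranged from 106 to 275 in SD and from 99.7 to 1610 in HFD (median 1203), and all 3 genes were called higher. HFD library 8 had 99.7 CPM, library 10 had 245 and library 9 had 475. Of 8 macrophage markers, 6 were called higher, and their sum was 300 to 602 CPM in SD and 586 to 4769 in HFD (median 3158). Here too HFD libraries 8 (592 CPM), 10 (586 CPM) and 9 (1160 CPM) were the lowest. No T cell marker of 7, no NK cell marker of 5 and no B and plasma cell marker of 6 was called in either direction, and of 6 dendritic cell markers 1 was called lower and none higher. Their sums in SD and HFD ranged from 6.46 to 25.4 and 6.88 to 68.1 CPM for T cells, from 1.41 to 3.62 and 1.91 to 7.44 for NK cells, from 6.13 to 88.0 and 6.90 to 370.5 for B and plasma cells, and from 51.1 to 92.2 and 28.4 to 69.7 for dendritic cells. Of 7 neutrophil markers 4 were tested, with 1 called higher and 1 lower and a sum of 4.19 to 62.9 CPM in SD and 6.85 to 32.9 in HFD; Ly6g was near 0. Of 5 eosinophil markers 2 of 4 tested were called higher, with a sum of 0.386 to 1.75 CPM in SD and 0.909 to 8.28 in HFD; Epx was near 0. Of 6 mast cell markers 1 was called higher. The part of leukocyte number in the members' levels was not tested.

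Set against the leukocyte sum in the same library, the members divided into chains that rose and chains that fell relative to it, a description without a test. Itgax was 6.33% of the summed CPM of Ptprc, Coro1a and Laptm5 in SD and 35.0% in HFD, as group means. Itgb2 was 21.9% in SD and 55.4% in HFD, and Itgad was 0.213% and 1.82%. Itgam stayed near the leukocyte genes, at 5.66% and 6.76%. The other chains were lower relative to that sum in HFD: Itgal went from 5.09% to 1.84%, Itga4 from 6.08% to 4.13%, Itgb7 from 6.11% to 3.24% and Itgae from 2.47% to 0.518%.

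Within the library sets the direction of the diet difference was kept for the called members. In set 1, with 2 SD and 5 HFD libraries, the same 6 were called higher, where 17.5% of tested genes were: Itgad 5.31, Itgax 5.53, Itgam 3.40, Itgb2 4.48, Itga4 2.81 and Itgb7 2.12 (log2). In set 2, with 5 libraries each, 0.925% of tested genes were called higher by edgeR, among them Itgad (6.63) and Itgax (4.90), both with an adjusted p of 0.0369. The SD libraries of set 2 had 0.0800 to 0.163 CPM of Itgad, below the cutoff of 0.266 CPM. Itgad thus passed the filter there through the high-fat groups, and its call is only a description. Set 2 contains HFD libraries 8, 9 and 10. There Itgb2 had a log2 difference of 3.44 (adjusted p = 0.0562), Itgam of 2.02 (0.0752), Itga4 of 1.68 (0.196) and Itgb7 of 0.94 (0.402), and neither these 4 nor Itgal and Itgae passed the test.

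The diet also went with a different mix of alpha chain transcripts for Itgb2. Levels of different genes can be compared only per length, so the authors' deposited FPKM of Itgal, Itgam, Itgax and Itgad were summed in each library and each chain was taken as a share of the sum. In SD the shares of Itgax (37.8% ± 12.3, SD, n = 7) and Itgam (36.0% ± 7.94) were similar, Itgal had 24.7% ± 10.3 and Itgad 1.59% ± 2.09. In HFD Itgax had 75.2% ± 12.7 (SD, n = 10), Itgam 16.7% ± 10.1, Itgal 4.04% ± 4.92 and Itgad 4.08% ± 2.28. The Itgax share was higher by 37.5 percentage points (exact permutation test, two-sided, p = 4.11e-04, adjusted over 8 share tests 0.00165). The Itgal share fell by 20.6 points (exact permutation test, p = 3.09e-04, adjusted 0.00165). HFD library 8, with 43.0% Itgax, 42.8% Itgam and 13.3% Itgal, was inside the SD ranges of 24.9% to 57.5%, 24.4% to 44.3% and 11.3% to 40.8%. The mean ratio of Itgax to Itgam FPKM was 1.15 in SD and 5.80 in HFD, and both this ratio and the shares carry the uncertainty of the Itgam level.

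The shift in the mix had the same direction within each library set. In set 1 the Itgax share differed by 32.4 points and the Itgal share by -12.2 points, with 2 SD against 5 HFD libraries, where the smallest p that an exact permutation test allows is 0.0952. In set 2, with 5 against 5, the differences were 37.3 points (exact permutation p = 0.0159, adjusted 0.0635) and -22.5 points (exact permutation p = 0.00794, adjusted 0.0635). While the summed alpha chain FPKM went from 5.13 ± 2.59 (SD, n = 7) to 97.9 ± 54.4 (SD, n = 10), the ratio of Itgb2 FPKM to that sum was 2.31 ± 0.575 in SD and 1.95 ± 0.357 in HFD. The ratio of the beta chain to its partners differed far less between the diets than their sum.

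**Figure D2:**
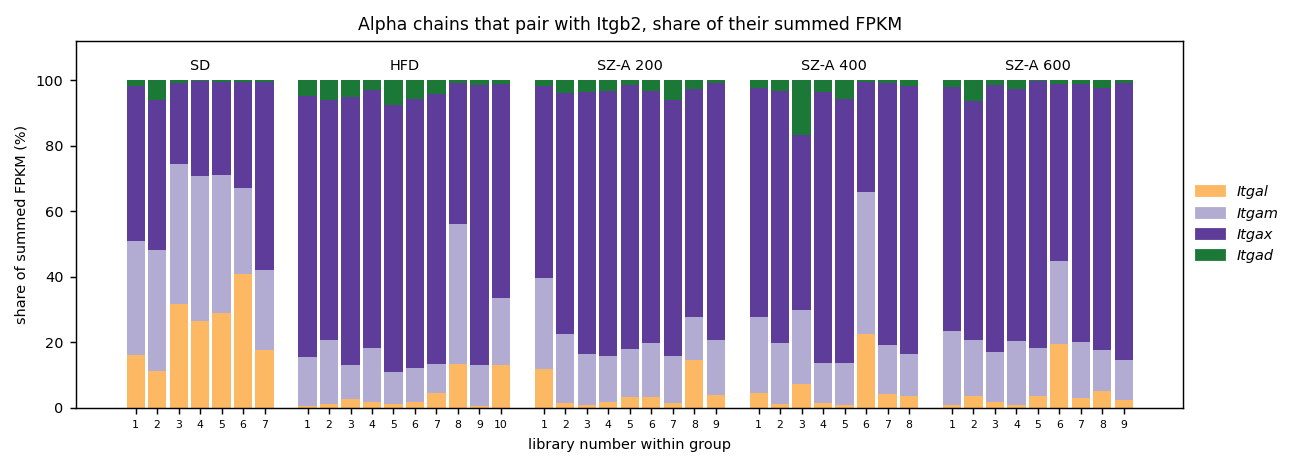
Share of Itgal, Itgam, Itgax and Itgad in their summed FPKM (percent, stacked bars from 0), 1 bar per library, ordered by group. Itgax takes 75.2% on average in HFD and 37.8% in SD, and HFD library 8 (43.0%) lies within the SD range.

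The SZ-A groups ask whether integrin levels differed in treated mice on the same diet. Means of Itgax were 383 CPM in HFD and 223, 194 and 164 CPM at 200, 400 and 600 mg/kg/day, and means of Itgad were 22.0, 10.8, 8.71 and 4.71 CPM. Itgb2 had 614.6, 435.7, 354 and 302 CPM, Itgam 64.4, 47.4, 41.4 and 38.8, and Itga4 41.3, 37.7, 19.0 and 16.3. These lower means came with wide spreads: at 400 mg/kg/day Itgax ranged from 9.36 to 601.5 CPM. No member was called between any dose and HFD by edgeR's quasi-likelihood test. All the dose comparisons share the same 10 HFD libraries.

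At 200 mg/kg/day the log2 differences from HFD ran from -1.03 (Itgad) and -0.78 (Itgax) to -0.13 (Itga4), -0.04 (Itgal) and 0.49 (Itgae), and no member had an unadjusted p under 0.05 by edgeR or DESeq2. Across all tested genes 0.00989% were called higher and 0% lower. At 400 mg/kg/day, where 2.46% of genes were called higher and 0.406% lower, Itgad differed by -1.34, Itga4 by -1.12 (adjusted p = 0.207), Itgal by -1.05 and Itgax by -0.98. There 1 member had an unadjusted p under 0.05 by edgeR and 3 by DESeq2, which called none.

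At 600 mg/kg/day, where 5.12% of genes were called higher and 6.47% lower, Itgad and Itga4 came nearest to a call. The libraries 1 to 9 of that dose held 7.46, 10.2, 2.03, 12.0, 0.410, 0.283, 1.03, 7.56 and 1.38 CPM of Itgad. All lay inside the HFD range of 0.182 to 42.6 CPM. The log2 difference was -2.23 ± 0.84 (SE; adjusted p = 0.0720). Itga4 was at 8.52 to 40.6 CPM (median 15.6) against 4.66 to 80.3 in HFD, with a log2 difference of -1.34 ± 0.47 (SE; adjusted p = 0.0553). Itgax differed by -1.22 (adjusted p = 0.200), Itgb2 by -1.03 (0.279), Itgb7 by -0.93 (0.152), Itgal by -0.93 (0.217) and Itgam by -0.73 (0.370), and Itgae by 0.54 (0.237). Unadjusted, 3 members had a p under 0.05. DESeq2 called 2 lower, Itgad (adjusted p = 0.0222) and Itga4 (0.0257). So did edgeR when either HFD library 8 or 10 was left out, with -2.36 and -1.45 or -2.37 and -1.47. The share of all tested genes called in these fits is not given here.

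The linear trend over 0, 200, 400 and 600 mg/kg/day called Itga4 alone among the members, lower by 0.50 ± 0.15 (log2 per 200 mg/kg/day, SE; adjusted p = 0.0241). Over all tested genes 6.82% were called higher and 7.86% lower. The median level of Itga4 was 41.6 CPM in HFD, 37.4 at 200, 16.5 at 400 and 15.6 at 600 mg/kg/day. Its call was lost without SZ-A 600 library 6, a library with RNA of other tissue, where the trend was -0.47 (adjusted p = 0.0560), and with SZ-A 200 library 8 and the 4 other-tissue libraries left out (-0.41, adjusted p = 0.0583), though not with those 4 alone left out (-0.46, adjusted p = 0.0431). Itgad had a trend of -0.70 (adjusted p = 0.0661), Itgal of -0.38 (0.101) and Itgb7 of -0.32 (0.111).

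With library set as a term, Itgad was called at 600 mg/kg/day (-2.32, adjusted p = 0.0348) and in the trend (-0.80, adjusted p = 0.0216). Itga4 was called at 600 mg/kg/day in that fit (-1.36, adjusted p = 0.0382). Its share of all tested genes called at this dose or in the trend is not given here, so these gained calls cannot be set against it. In set 1 alone, where 16.8% of genes were called higher and 12.8% lower at 600 mg/kg/day, Itga4 (-1.67, adjusted p = 0.0240) and Itgal (-1.26, adjusted p = 0.0459) were called lower and Itgae (0.91, adjusted p = 0.0424) higher. The trend in set 1 called Itga4 (-0.53) lower and Itgae (0.31) higher, with 15.6% and 11.9% of genes called higher and lower. In set 2 alone no member was called, at 600 mg/kg/day with 0.0183% and 0% of genes called higher and lower, or in the trend with 0.0183% and 0%. There 0 and 1 members had an unadjusted p under 0.05.

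**Figure D3:**
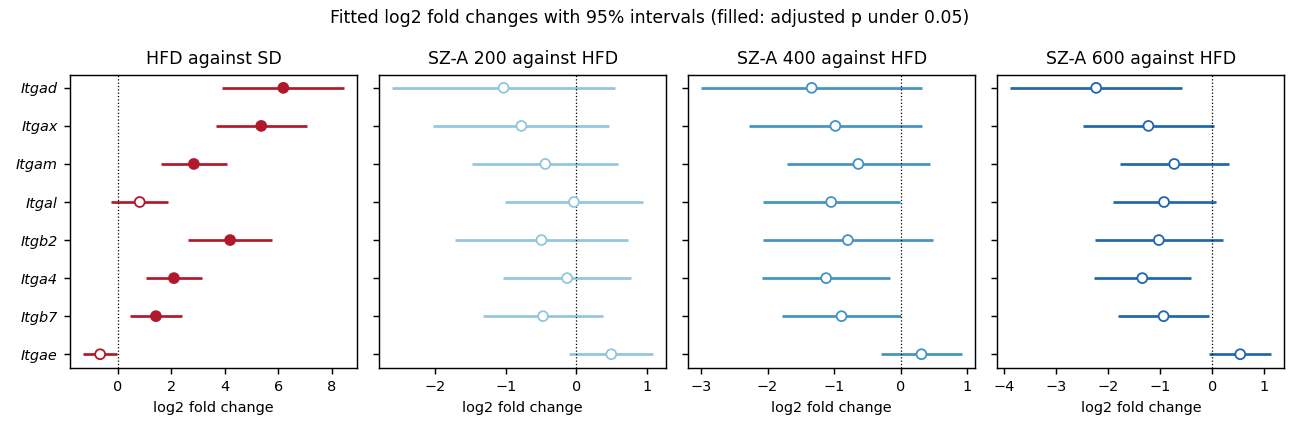
Log2 fold change of each member with its 95% interval in HFD against SD and in each SZ-A dose against HFD, with points filled at an adjusted p under 0.05. The 6 called diet differences run from 1.42 to 6.18, and no point is filled in the 3 dose panels, where Itgad at 600 mg/kg/day is lowest (-2.23).

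The summed leukocyte and macrophage markers were also lower at the doses, with medians of 1203, 869, 273 and 336 CPM for leukocytes and 3158, 2025, 658 and 809 CPM for macrophages in HFD and at 200, 400 and 600 mg/kg/day. Relative to the leukocyte sum, as group means, Itgax was 35.0% in HFD and 29.1%, 28.7% and 34.9% at the doses. Itgb2 was 55.4%, 55.3%, 51.5% and 63.3%, Itga4 was 4.13%, 5.02%, 5.37% and 4.55%, and Itgad was 1.82%, 1.13%, 1.42% and 0.904%. Some means were raised by single libraries. Itga4 was 10.6% in SZ-A 200 library 8, 12.6% in SZ-A 400 library 6 and 10.8% in SZ-A 600 library 6. Itgad was 3.64% in SZ-A 400 library 3. The medians were 3.93%, 4.30%, 4.69% and 3.79% for Itga4 and 2.015%, 1.07%, 1.14% and 0.602% for Itgad. The part of leukocyte number in the lower levels was not tested.

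No difference in the alpha chain mix between a dose and HFD passed the test. The Itgax share of the summed FPKM was 75.1% ± 7.27 (SD, n = 9) at 200, 69.8% ± 17.6 (n = 8) at 400 and 76.0% ± 9.00 (n = 9) at 600 mg/kg/day, which differed from HFD by -0.0998, -5.40 and 0.772 points. The Itgal share differed by 0.637, 1.69 and 0.455 points. Every adjusted p of these exact permutation tests was 0.976, and all the differences were smaller than the SD within each group. SZ-A 400 library 6 had the lowest Itgax share of the treated libraries, 33.3%, and SZ-A 400 library 3 the highest Itgad share, 16.8%; both carry RNA of other tissue.

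In treated mice on the high-fat diet Itgax, Itgad, Itgb2 and Itgam were called higher than in SD at every dose in the fit of 5 groups, and some of these calls depended on the fit. At 200 mg/kg/day, where 10.8% of genes were called higher and 4.59% lower, 5 members were called higher: Itgad (5.15), Itgax (4.58), Itgb2 (3.70), Itgam (2.40) and Itga4 (1.96). At 400 mg/kg/day, with 8.29% and 2.6% of genes called, 4 were called higher: Itgad (4.85), Itgax (4.38), Itgb2 (3.40) and Itgam (2.20). At 600 mg/kg/day, with 2.01% and 1.36% of genes called, the same 4 were called: Itgax (4.13, adjusted p = 0.00386), Itgad (3.96, adjusted p = 0.0307), Itgb2 (3.17, adjusted p = 0.0175) and Itgam (2.11, adjusted p = 0.0480), all log2 fold changes by edgeR's quasi-likelihood test. With library set as a term Itgam was no longer called at 400 (1.67, adjusted p = 0.0806) or 600 mg/kg/day (1.69, adjusted p = 0.0882). At 600 mg/kg/day the Itgam call was also lost without SD library 1, 2, 3, 5, 6 or 7 or SZ-A 600 library 1, 2, 3, 4 or 8 (adjusted p from 0.0559 to 0.121), and that of Itgad without SD library 3, 5, 6 or 7 or SZ-A 600 library 1, 2 or 4 (0.0524 to 0.0786). At 400 mg/kg/day the Itgam call was lost without SD library 5 (2.11, adjusted p = 0.0502) or SZ-A 400 library 2 (1.52, adjusted p = 0.112). These comparisons share the 7 SD libraries with that of HFD and SD.

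Within the library sets most of these calls against SD were lost, while the log2 differences of the called members stayed positive. At 200, 400 and 600 mg/kg/day Itgax differed by 4.35, 4.68 and 4.24 in set 1 and by 4.63, 2.82 and 3.74 in set 2. Itgam differed by 2.52, 2.735 and 2.64 in set 1 and by 2.245, 0.75 and 1.225 in set 2. In set 1, with 2 SD libraries, no member was called at 200 mg/kg/day (3.56% of genes called higher) or at 600 mg/kg/day (1.27%), and Itgax alone at 400 mg/kg/day (3.49%). Unadjusted, 5, 4 and 5 members had a p under 0.05 at 200, 600 and 400 mg/kg/day. In set 2 none was called at 200, 400 or 600 mg/kg/day, where 0%, 0.00916% and 0.00458% of all genes were called higher and 5, 2 and 3 members had an unadjusted p under 0.05.

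Genes that act with these integrins were described from 4 lists, which were chosen with earlier results of these data known. In HFD against SD 15 of 17 genes of signalling from bound integrins were called higher and none lower, with a median log2 fold change of 2.36, where 18.4% of all tested genes were called higher and 13.3% lower and the median was -0.05. Those with the smallest p were Ptk2b (0.91), a focal adhesion kinase, Plcg2 (2.36), a phospholipase C, and Was (2.75), a regulator of actin branching. Of 18 genes that switch integrins on, 10 were called higher and none lower, with a median of 0.83: Tln1 (1.07), which encodes talin, Fermt3 (2.89), the kindlin of blood cells, and Fyb (2.93), an adaptor, had the smallest p. Values of the other called activation genes ran from 0.41 (Sharpin) to 2.33 (Plek).

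The calls among ligands lay nearer to the shares over all tested genes, 18.4% higher and 13.3% lower. Of 17 listed ligand genes 15 were tested, 4 were called higher and 2 lower, and the median was -0.18. Icam5 (2.88), Fn1 (1.53), which encodes fibronectin, and Thy1 (1.25), a glycoprotein that binds Itgam, had the smallest p among the rises, and complement C3 (1.34) was the fourth. Icam1 (0.41, adjusted p = 0.103) and Vcam1 (0.79, adjusted p = 0.0563), the ligands of the Itgb2 and Itga4 pairs on endothelium, were picked out after their values were seen and did not pass. F11r (-0.73), which encodes a junction protein that binds Itgal, and Cdh1 (-5.01), which encodes E-cadherin, the Itgae ligand, were lower, but Cdh1, an epithelial gene, ranged from 0 to 60.8 CPM among the SD libraries. Of 17 other integrin chains tested of 18 listed, 4 were called higher, Itga5 (1.35), Itgb5 (0.91), Itga11 (1.23) and Itgb3 (1.04), and Itga8 (-1.53) lower, with a median of -0.28.

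Under the dose of 600 mg/kg/day, relative to HFD, 6.47% of all tested genes were called lower and 5.12% higher. There 6 of the 17 signalling genes were lower, with Vav3 (-1.04), Lyn (-0.94) and Pxn (-0.45) the clearest, and 4 of the 18 activation genes, among them Tln1 (-0.67), Stk4 (-0.73) and Rassf5 (-0.83). Of the ligands, Icam1 (-0.80), Fn1 (-1.61) and Thy1 (-1.23) were lower, and Jam3 (0.58) and Cdh1 (4.82) higher. Of the other chains 4 were lower, among them Itga5 (-1.12), Itga11 (-1.22) and Itga9 (-0.86). The dose trend, which called 7.86% of all tested genes lower and 6.82% higher, called 11 signalling genes lower, with Vav3 (-0.36), Lyn (-0.32) and Plcg2 (-0.43) first, and 7 activation genes, with Stk4 (-0.25), Tln1 (-0.22) and Rassf5 (-0.28) first. It called 4 ligands lower, Icam1 (-0.27), Fn1 (-0.51) and Thy1 (-0.39) first, 2 higher, Cdh1 (2.17) and Jam3 (0.18), and the other chains Itga5 (-0.35), Itga11 (-0.42) and Itga9 (-0.26) lower. At 400 mg/kg/day, where 2.46% of all tested genes were called higher and 0.406% lower, the called genes were Icam1 (-0.74) and Itga11 (-1.16), lower, and Cdh1 (7.00) and Itga2 (4.11), higher, and at 200 mg/kg/day no gene of the 4 lists was called. Cdh1 reached 214.5 CPM in an SZ-A 400 library and 74.2 CPM in an SZ-A 600 library, against at most 0.784 CPM in HFD. SZ-A 400 libraries 3 and 6 and SZ-A 600 library 6 carry RNA of other tissue. The part of other tissue in the levels of Cdh1 and Itga2 was not tested.

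**Figure D4:**
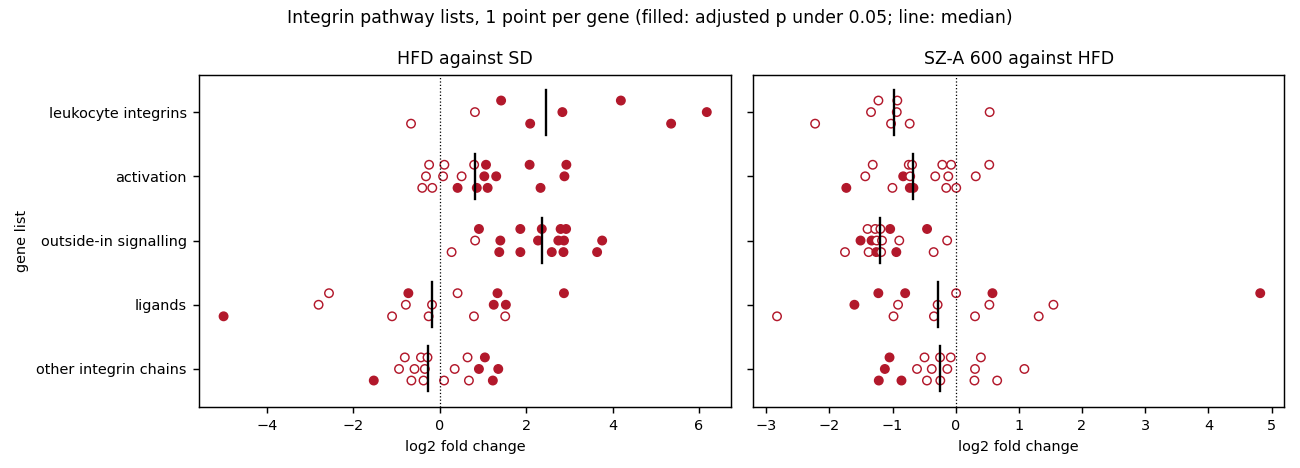
Log2 fold change of each tested gene of the 4 lists and of the 8 members in HFD against SD and in SZ-A 600 mg/kg/day against HFD, with called genes filled and a line at the list median. Signalling genes lie high in the diet comparison (median 2.36) and ligands around 0 (median -0.18).

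Across libraries Itgax, Itgam and Itgad moved closely with Itgb2, Itgal less closely, and Itgae in no positive relation. Correlations were taken over all 43 libraries on log2 CPM after the means of each group and library set were removed, as a description. Itgax and Itgb2 had a Pearson r of 0.979 and a Spearman rho of 0.966, and r was 0.973 without the 2 libraries farthest from the median of Itgax. The other alpha chains of Itgb2 that rose had an r of 0.927 (Itgam) and 0.883 (Itgad) with it, whereas Itgal had 0.539. Itgal was closest to Itga4 (0.759) and Itgb7 (0.713) among the members. Itgae had a negative r with every other member, from -0.0744 to -0.334.

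The genes most like each member over the same libraries, among 13510 genes, differed between the chains. For Itgb2 they were Myo1f (0.992), a myosin of leukocytes, Hk3 (0.991), a hexokinase, and Cd84 (0.988), an adhesion receptor of the SLAM family. For Itgax they were Slc15a3 (0.972), Myo1f (0.971) and Cd84 (0.971), and for Itgam Emp3 (0.972), Ncf4 (0.971), a subunit of the phagocyte oxidase, and Pstpip1 (0.966). For Itgad they were Plekhm3 (0.927), Rab8b (0.918) and Gng2 (0.916), and for Itga4 Wdfy4 (0.967), Fyb (0.959) and Ikzf1 (0.959), a lymphoid transcription factor. For Itgb7 they were Rac2 (0.948), a small GTPase of blood cells, Coro1a (0.941) and Ifi30 (0.935). Itgal stood apart from its neighbours, with the T cell coreceptor Cd4 (0.886), Trpm2 (0.883) and the cytokine receptor Il21r (0.878). Itgae had only weak matches, Cdsn (0.713), Pag1 (0.701) and Chst12 (0.680), which were 0.573, 0.555 and 0.598 without the 4 other-tissue libraries and SZ-A 200 library 8. The points share their libraries, whose summed leukocyte markers ranged from 75.9 to 1610 CPM.

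**Figure D5:**
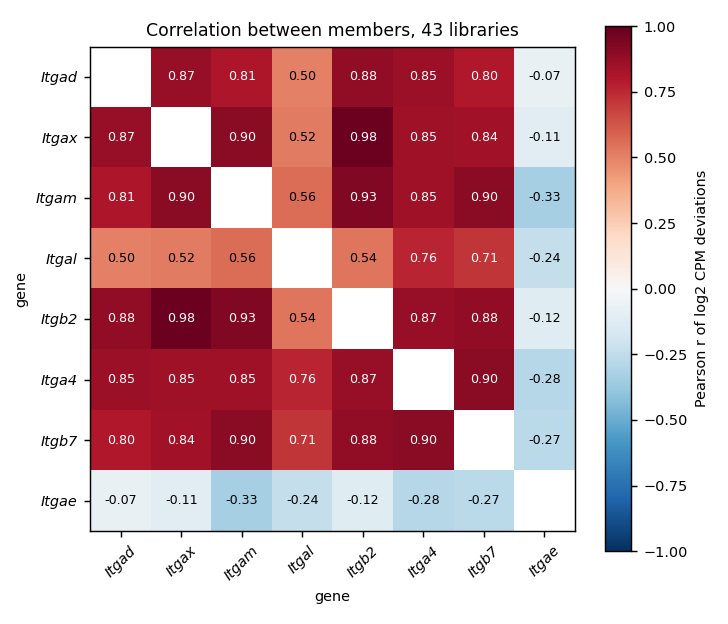
Pearson correlation between members over 43 libraries, on log2 CPM with group and library set means removed. Itgad, Itgax, Itgam, Itgb2, Itga4 and Itgb7 form a block of high values, Itgal is intermediate and Itgae is negative throughout.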

How the data were processed

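TRIzol RNA of epididymal fat was enriched for poly(A) and turned into dUTP strand-specific libraries, sequenced as 150 bp pairs, per the labels. Tests used the authors' gene counts, unchanged. FPKM, deposited by the authors beside these counts, served for the alpha chain shares and for alternatives. Aligner and counter were not given in the sources used here, while the submitters' processing notes name mm10. Groups came from the labels. All 43 libraries were fitted in 1 model of 5 groups with edgeR 4.0.16 (TMM, filterByExpr, robust quasi-likelihood F test) in R 4.3.3, with Benjamini-Hochberg adjustment over 20218 genes and calls at 0.05. The SE is the log2 fold change divided by the square root of F. Shares were tested with exact permutation tests. Alternatives used limma 3.58.1, DESeq2 1.42.0, log2(FPKM + 1) and log2(FPKM + 0.1), other sets of libraries, library set as a term and leaving out each library. Scripts were tested on simulated data. Figures used Python 3.11.15 and matplotlib 3.10.9. Named list genes were the 3 called with the smallest p in each direction. Likeness used genes of at least 1 CPM and a symbol, on log2 CPM with a prior count of 2. Members, lists, library sets and rules were chosen with earlier results of these data known. Protein sequences were not analysed here.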

Additional observations from a re-analysis of the deposited data

Results flagged for a closer look

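In 11 of 40 combinations of member and group, the highest library stood far from the rest by Dixon's gap test on CPM. The rate of about 1 of 20 by chance holds for normally spread values. It does not hold for CPM with long upper tails or for combinations that share libraries, so the 11 are only a description. They came from 7 libraries. SD library 4, one of those with RNA of other tissue, was far above the other SD libraries in Itgam (21.3 CPM, next 9.48), Itga4 (23.0 CPM, next 11.5) and Itgb7 (31.4 CPM, next 9.87). SZ-A 200 library 8, which has the highest B and plasma cell markers, had 65.8 CPM of Itgal (next 14.6) and 114.9 CPM of Itga4 (next 61.7). SZ-A 600 library 8 had 22.96 CPM of Itgal (next 8.38) and 40.6 CPM of Itga4 (next 17.3). Its summed T cell markers were 31.6 CPM, the highest of that group. Itgad stood out in SD library 2 at 1.05 CPM (next 0.441) and in SZ-A 200 library 7 at 38.5 CPM (next 15.8). Itgam reached 151 CPM in SZ-A 400 library 2 (next 59.7), and Itgae 6.52 CPM in SZ-A 600 library 7 (next 3.36).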

How the results depend on the processing

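Of 832 member values under alternatives other than leaving out 1 library, 727 kept their direction and side of the threshold, 52 lost and 30 gained a call, and 23 reversed; the causes were not tested. For these comparisons, the share of all tested genes called is given here only for the fit of 5 groups and within the library sets. Counts of members called under the other alternatives cannot be set against such a share. For HFD against SD, 6 members were called, 2 in set 2 alone and 5 to 6 with each library left out in turn. For SZ-A 600 against HFD, 0 were called by edgeR, but 2 by DESeq2, 1 with log2(FPKM + 1), 1 with only the groups compared, 2 with library set as a term, 3 with that term and without the 4 other-tissue libraries, 3 in set 1, and 0 to 2 with each library left out. The dose trend, with 1 call, gave 2 by DESeq2, 1 (Itgad in place of Itga4) with log2(FPKM + 1), 0 with log2(FPKM + 0.1), 2 with the set term, 3 with that term and without the other-tissue libraries, 0 without those and SZ-A 200 library 8, 2 in set 1, 0 in set 2 and 0 to 2 with each library left out; it had 0 when SZ-A 600 library 6 was dropped and 2 when the dropped one was HFD library 8 or 10, SZ-A 400 library 2 or SZ-A 600 library 8. Against SD, the 5 calls at 200 mg/kg/day were 3 with log2(FPKM + 1) and 0 in set 1 or set 2; the 4 at 400 were 1 with either FPKM setting, 2 with only the groups compared, 1 in set 1 and 0 in set 2. The 4 at 600 were 2 without a filter beyond 1 count, 2 with either FPKM setting, 0 in either set, and 2 to 4 with each library left out, with 2 without SD library 3, 5, 6 or 7 or SZ-A 600 library 1, 2 or 4.

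Replicate numbers were not taken to pair libraries. Same-numbered libraries of different groups had a median correlation of 0.197, with 48 of 79 pairs over 0.1 and the lowest at -0.357. Differently numbered pairs had a median of -0.0351 (238 of 658 over 0.1), but those within a library set had 0.229 (212 of 298). In 27 of 158 cases a library's best match in another group carried its own number. The number that chance would give is not at hand, so this count decides nothing about pairing. With the replicate number as a block, 7 members were called for HFD against SD, Itgae as lower. There 3 were called for SZ-A 600 against HFD and 3 in the trend. The share of all tested genes called with that block is not given here.

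Reversed log2 values, against SD, without the other-tissue libraries, without these and SZ-A 200 library 8, with the set term, with that term and without the other-tissue libraries, and in set 1, were 0.0623, 0.0639, 0.15, 0.45 and 0.51 for Itgal at 400 mg/kg/day, and 0.15, 0.18, 0.13, 0.36 and 0.32 at 600, where set 2 gave 0.0370. Itgae at 600 gave 0.0780 and 0.0513 with the set term with and without those libraries, 0.11 in set 1 and 0.0151 in set 2, and at 400 it gave 0.21 in set 1. In set 2, Itgam (0.23), Itgal (0.64), Itgb2 (0.38) and Itga4 (0.52) were above HFD at 200 mg/kg/day, Itgae at 400 was at -0.13 against HFD, Itgae at 200 at 0.0747 and Itgb7 at 400 at -0.63 against SD. With each library left out in turn, Itgal ran from -0.19 to 1.03, -0.41 to 0.0155 and -0.56 to 0.16 against SD at 200, 400 and 600, and from -1 to 0.31 against HFD at 200; Itgae ran from -0.36 to 0.0253 against SD at 600, and Itga4 from -0.58 to 0.0405 against HFD at 200.

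The share differences between HFD and SD were 32.4 (Itgax) and -12.2 (Itgal) points in set 1 and 37.3 and -22.5 in set 2, no longer past the threshold. In set 1 the exact permutation test allows no p under 0.0952, so the threshold could not be passed there. In set 2 it allows none under 0.00794, which was the p of Itgal before adjustment. Differences from HFD that changed sign were small: for Itgax at 600 mg/kg/day -1.002 without Itgad in the sum and -1.46 in set 1, at 200 mg/kg/day 0.878 without Itgam in the sum, an alternative chosen after seeing the data, and 4.09 in set 2, and at 400 mg/kg/day 3.43 without the other-tissue libraries; for Itgal -1.39 at 400 and -1.42 at 600 without these, and -0.776 at 200 in set 2. With each library left out, Itgax ran from -3.68 to 1.99 at 200 and -2.81 to 3.52 at 600, and Itgal from -0.614 to 1.67, -0.716 to 2.72 and -1.42 to 1.48 at the rising doses.

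Depth limits Itgad in SD, where the lowest library holds 3 counts. Reads shared by Itgad and Itgax and by Itgam and Gm49368, and the few SD libraries in set 1, limit those values too.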

Other observations

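Some neighbours of Itgam, Itgax and Itgad on chromosome 7 were also called in the diet comparison. Within 100 kb of these genes, Pycard, the adaptor of inflammasomes, was called higher in HFD than in SD (log2 fold change 2.89, adjusted p = 4.48e-04 by edgeR's quasi-likelihood test), as was Armc5 (0.30, adjusted p = 0.00564). Trim72 (-0.55), Tgfb1i1 (-0.23), 9130023H24Rik (-0.06) and Rusf1 (0.17) were not called. Of the genes inside Itgad on the opposite strand, Cox6a2 (4.05) and Gm44850 (2.77, adjusted p = 0.0476) were called higher, at 2.17 and 0.500 CPM in HFD.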
